A study of Mus musculus with 16 samples.

Results

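Expression of 10 genes of 2 systems that keep genes silent was followed through normal mouse skin and skin carcinomas: *Ezh1*, *Ezh2*, *Suz12*, *Eed*, *Jarid2* and *Bmi1* of the Polycomb complexes, and *Dnmt1*, *Dnmt3a*, *Dnmt3b* and *Uhrf1* of DNA methylation. They were chosen by name, as the probesets (sets of probes for the same transcript) whose array annotation gives only the symbol of a gene on that list. This gave 30 of the 45037 probesets tested and 10 of the 18194 genes with a probeset of their own. Polycomb repressive complex 2 places methyl groups on lysine 27 of histone H3, and Polycomb repressive complex 1 reads that mark and adds ubiquitin to histone H2A; both keep developmental genes silent, and in epidermis they restrain the differentiation programme of progenitor cells. DNA methylation is copied to the new strand after each replication by a maintenance enzyme, and set on unmethylated DNA by de novo enzymes.

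Expression was measured on Affymetrix mouse arrays, with 1 array for each of 16 samples from mice of the FVB background. The 4 control skins were normal skin of wild type animals. The 7 p53 tumors arose in k14Cre;p53loxP/loxP animals and the 5 pRbp53 tumors in k14Cre;p53loxP/loxP;pRbloxP/loxP animals, in which Cre is driven by the keratin 14 promoter, active in basal cells of stratified epithelia, so that the deletion is limited to those epithelia and the stroma keeps both genes. All tumors were classed as squamous cell carcinomas. By histological subtype the p53 tumors comprised 3 poorly differentiated, 1 undifferentiated, 1 spindle and 2 mixed carcinomas, and the pRbp53 tumors 4 spindle and 1 mixed. No label gives an age. None says whether each sample is from its own animal, and the p-values therefore describe the spread of these samples alone. The mean log2 signal of *Rb1*, which encodes pRb, was 9.26 ± 0.25 in the 4 control skins (SD), 8.06 ± 0.33 in the 7 p53 tumors and 7.70 ± 0.35 in the 5 pRbp53 tumors. Where its probeset lies relative to the deleted exons was not examined, so it does not check the labels.

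Some samples stood apart. Degraded RNA loses the 5′ end of a transcript first. The gap between the 3′ and 5′ probesets of actin was 1.67 for p53 tumor 7 and 1.33 for control skin 3 on the log2 scale, and it lay between 0.21 and 0.68 on the remaining 14 arrays. The tissue also differed in makeup: the mean log2 signal of 6 skeletal muscle genes lay between 13.33 and 13.59 in control skin and between 4.81 and 8.56 in the tumors, and that of 6 measured keratinocyte genes between 11.95 and 12.20 in control skin and between 4.52 and 12.47 in the tumors. All 6 muscle genes and 3 of the 6 keratinocyte genes were lower in the tumors by the test described below, which called 6.85% of all probesets lower. In such bulk samples a lower share of a cell type and less RNA per cell cannot be told apart, and the part of tissue makeup in the results below was not tested. p53 tumor 5, labelled poorly differentiated, had a keratinocyte mean of 5.47, beside 10.71 and 11.11 in the other 2 poorly differentiated tumors.

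The promoters of 4 of the 10 genes held a binding motif of E2F, the family of transcription factors that pRb restrains and that drives genes of DNA replication. The motif was searched as TTTCCCGC, TTTGGCGC, TTTCGCGC or TTTGCCGC on either strand, in the 250 bases before and 50 bases after each transcription start in the RefSeq annotation of GRCm38.p6, in which all 10 genes were found. At least 1 start of 40.0% of the member genes held it, beside 2.6% of all 27025 genes in that table and 3.8% of the 14368 of them that were read on the array. The matches were in *Ezh2* (chr6:47594981-47595280, minus strand), *Suz12* (chr11:79992856-79993155, plus strand), *Dnmt1* (chr9:20952574-20952873, minus strand, 1 of its 3 starts) and *Uhrf1* (chr17:56304063-56304362, plus strand, 1 of its 2 starts). These 4 are printed because they include both genes that rose in the tumors; the motif is in capitals, and in *Dnmt1* it occurs once on each strand. A match describes the letters only and is neither a site nor a cause.
Ezh2: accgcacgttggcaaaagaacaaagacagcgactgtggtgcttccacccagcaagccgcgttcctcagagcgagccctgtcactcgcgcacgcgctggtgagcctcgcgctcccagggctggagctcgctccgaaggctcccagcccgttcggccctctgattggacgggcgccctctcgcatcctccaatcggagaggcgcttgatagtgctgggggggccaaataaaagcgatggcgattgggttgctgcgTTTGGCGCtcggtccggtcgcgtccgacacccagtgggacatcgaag
Suz12: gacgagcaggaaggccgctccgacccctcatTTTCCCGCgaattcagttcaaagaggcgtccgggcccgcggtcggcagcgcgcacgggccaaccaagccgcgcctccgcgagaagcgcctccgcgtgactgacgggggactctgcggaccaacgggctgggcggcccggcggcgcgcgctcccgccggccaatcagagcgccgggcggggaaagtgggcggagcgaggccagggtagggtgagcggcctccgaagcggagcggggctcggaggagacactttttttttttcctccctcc
Dnmt1: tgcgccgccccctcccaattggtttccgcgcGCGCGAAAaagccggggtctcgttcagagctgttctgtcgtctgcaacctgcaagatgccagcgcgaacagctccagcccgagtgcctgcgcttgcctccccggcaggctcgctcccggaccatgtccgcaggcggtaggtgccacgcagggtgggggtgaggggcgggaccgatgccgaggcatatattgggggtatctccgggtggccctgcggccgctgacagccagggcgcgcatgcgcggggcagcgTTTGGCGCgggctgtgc
Uhrf1: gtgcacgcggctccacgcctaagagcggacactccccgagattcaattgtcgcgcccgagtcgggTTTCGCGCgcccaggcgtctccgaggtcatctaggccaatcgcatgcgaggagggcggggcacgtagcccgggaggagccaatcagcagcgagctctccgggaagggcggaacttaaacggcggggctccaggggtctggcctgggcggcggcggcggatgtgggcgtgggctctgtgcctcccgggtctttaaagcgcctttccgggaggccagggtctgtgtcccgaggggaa

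The first comparison asks how the genes differ between the carcinomas and normal skin (n = 12 and 4). A gene's value is that of its brightest probeset by mean signal over all arrays, values are log2 RMA signals, and a difference passed where the limma p-value, adjusted over all 45037 probesets, was under 0.05. *Suz12*, a core subunit of Polycomb repressive complex 2, and *Uhrf1*, which recognises newly replicated DNA and brings the maintenance methyltransferase to it, rose in the tumors. None of the 10 genes fell by limma and 8 did not pass. At an unadjusted p under 0.05, limma had 5 members higher and 2 lower, where 14.9% and 11.4% of all probesets were. The methods' t-test, after adjustment, called 3 members higher and 2 lower, where it called 11.3% and 8.67% of all probesets. By limma after adjustment, 6.36% of all probesets were called higher and 6.85% lower, beside 2 of 10 and 0 of 10 members. Among only 10 genes a share of that size would often leave 0 lower. The shares cover all probesets, dim ones included, and not only the brightest of each gene. The median difference was 0.52 over the 10 genes and 0.06 over all genes, and 8 of the 10 differences were above 0.

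**Figure D1:**
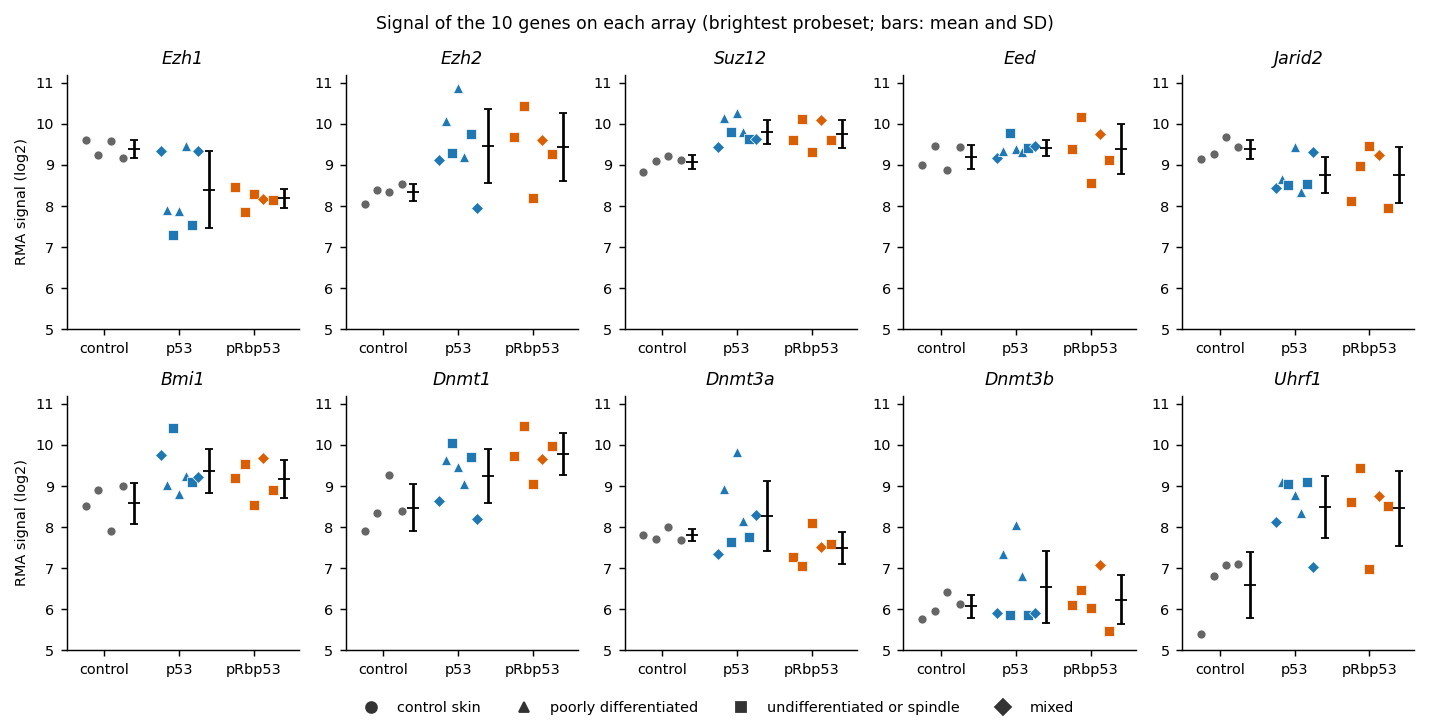
RMA log2 signal of each of the 10 genes (brightest probeset) on every array, by group: 4 control skins, 7 p53 tumors and 5 pRbp53 tumors. Symbols give the histological subtype and bars the group mean and SD; all tumors lie above all control skins for Suz12, while Ezh1 lies lower in 9 of the 12 tumors than in any control skin.

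Among the catalytic subunits of Polycomb repressive complex 2, *Ezh2*, the enzyme of dividing cells, had signals of 8.05, 8.39, 8.35 and 8.55 in control skins 1 to 4. In the tumors its lowest signal was 7.95, its median 9.46 and its highest 10.86. All tumors except p53 tumor 7 (7.95) and pRbp53 tumor 3 (8.19) lay above the control skins. The difference was 1.12 ± 0.41 (SE), a 2.17-fold higher mean, with a limma adjusted p of 0.0834. It passed in only 2 of the 16 fits that left out a single array, those without either of these 2 lowest tumors. The limma adjusted p was 0.0243 without p53 tumor 7 and 0.0409 without pRbp53 tumor 3. The highest in such a fit was 0.212. p53 tumor 7 had a high actin ratio and also the highest keratinocyte mean of the 16 arrays, at 12.47. The part of either in its *Ezh2* signal was not tested.

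*Ezh1*, the paralog that is the main H3K27 methyltransferase of many resting tissues, ran the other way, with 9.60, 9.25, 9.57 and 9.16 in the control skins. Its lowest tumor signal was 7.30, its median 8.16 and its highest 9.45. The 3 tumors within the control range, p53 tumors 1, 5 and 7 at 9.34, 9.45 and 9.33, were of the mixed or poorly differentiated subtypes. The difference was -1.09 ± 0.35 (SE), with a limma adjusted p of 0.0532, and without p53 tumor 1, 5 or 7 in turn it was 0.0280, 0.0206 and 0.0245. Those were the only 3 of the 16 fits without a single array in which it passed, and the highest adjusted p was 0.149. Of its 3 dimmer probesets, 1 gave -0.60 and the other 2, near the bottom of the scale at mean signals under 4, gave -0.05 and 0.09.

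The level of a probeset cannot be set against that of another, but the difference between 2 probesets within an array can be compared between groups. *Ezh2* minus *Ezh1* was -1.54, -0.86, -1.23 and -0.62 in control skins 1 to 4. In the tumors it ran from -1.38 in p53 tumor 7 to 2.98, with a mean of 1.15 ± 1.35 (SD, n = 12) beside -1.06 ± 0.41 (SD, n = 4). The shift was 2.21 (two-sided exact permutation test over 1820 splits, p = 0.00769, adjusted p = 0.0462 over the 6 paralog tests). It kept its direction but not its call with the mean of each gene's probesets, at 1.53 with an exact permutation adjusted p of 0.0824. Leaving out single arrays gave shifts from 2.04 to 2.44, and the call ended without any of 9 of the 16 arrays (control skin 1, p53 tumors 2, 3, 4 and 6, and pRbp53 tumors 1, 2, 4 and 5). These adjustments covered only the paralog tests that used the array left out: 2 for a control skin, 4 for a mixed tumor and 6 otherwise. Without control skin 2, 3 or 4 the call thus stood over 2 tests only, with unadjusted exact permutation p-values of 0.0132, 0.0220 and 0.0110. Without p53 tumor 4 a p of 0.0132 did not pass over 6 tests. The same test of *Dnmt3b* minus *Dnmt3a* gave a shift of 0.19 with an exact permutation p of 0.560.

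*Suz12*, which the complex needs for its stability and activity, was higher in every tumor than in every control skin. Its signals were 8.82, 9.09, 9.23 and 9.11 in the control skins, and 9.30, 9.72 and 10.26 as the lowest, median and highest in the tumors. It was the only member whose groups did not overlap, a separation that 6.86% of all probesets showed. The difference was 0.72 ± 0.16 (SE), 1.65-fold, with a limma adjusted p of 0.00627, and it passed whichever single array was left out. All 6 of its probesets gave a positive difference, from 0.23 to 0.96, and 4 of them passed. The fourth of these, at a difference of 0.50, had means of 3.42 in control skin and 3.92 in the tumors, near the bottom of the scale, as did 1 of those that did not pass (3.87 and 4.10).

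*Eed*, which binds the trimethylated lysine and activates the complex, had 9.01, 9.46, 8.87 and 9.43 in control skin against a lowest, median and highest of 8.55, 9.39 and 10.16 in the tumors. The groups overlapped, with tumors both above and below the range of the control skins, and the difference of 0.21 ± 0.21 (SE) had a 95% interval from -0.23 to 0.66. *Jarid2*, an accessory subunit that helps bring the complex to its targets, had 9.14, 9.27, 9.68 and 9.43 in control skin and 7.94, 8.59 and 9.47 in the tumors. Its difference was -0.63 ± 0.26 (SE, limma adjusted p = 0.137), with 8 of the 12 tumors below every control skin. *Bmi1*, a subunit of Polycomb repressive complex 1 known for keeping stem cells from senescence, had 8.52, 8.90, 7.91 and 9.01 in control skin and 8.53, 9.20 and 10.40 in the tumors, a difference of 0.70 ± 0.28 (SE, limma adjusted p = 0.114). Its lowest control value came from control skin 3, the other array with a high actin ratio, and its second probeset gave 0.28.

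In the maintenance arm of DNA methylation, *Uhrf1* had the largest difference of the 10 genes. Its signals were 5.40, 6.80, 7.07 and 7.11 in control skins 1 to 4, and 6.97, 8.69 and 9.43 as the lowest, median and highest in the tumors. The tumors with values in the control range were p53 tumor 7 at 7.03 and pRbp53 tumor 3 at 6.97, the same 2 that were low for *Ezh2*. The difference was 1.89 ± 0.43 (SE), 3.70-fold, with a limma adjusted p of 0.00771, and the other probeset gave 2.27 with 0.00283. Control skin 1 was the lowest array, and without it the brightest probeset gave 1.49 with a limma adjusted p of 0.0504.

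*Dnmt1*, the maintenance methyltransferase, had 7.90, 8.34, 9.26 and 8.40 in the control skins and 8.20, 9.64 and 10.46 in the tumors. The high control value was that of control skin 3. The difference was 0.99 ± 0.34 (SE, limma adjusted p = 0.0675) and became 1.25 (adjusted p = 0.0429) without control skin 3, and 1.37 (0.00865) without control skin 3 and p53 tumor 7. It also passed without p53 tumor 1 or 7 alone (limma adjusted p = 0.0466 and 0.0182). In all it passed in 3 of the 16 fits that left out a single array, and the highest adjusted p was 0.231. Its 3 probesets gave 0.99, 1.05 and 0.90, of which the second passed (limma adjusted p = 0.0468); the suffix of the other 2 marks probes that may bind unrelated transcripts.

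Neither de novo methyltransferase passed. *Dnmt3a* had 7.81, 7.71, 8.01 and 7.69 in control skin and 7.06, 7.71 and 9.82 in the tumors, a difference of 0.15 ± 0.38 (SE) with a 95% interval from -0.66 to 0.96. *Dnmt3b* had 5.77, 5.96, 6.41 and 6.14 in control skin and 5.47, 6.07 and 8.04 in the tumors, a difference of 0.34 ± 0.38 (SE, 95% interval -0.46 to 1.14). In both genes the tumors spread to both sides of the control skins. The 5 *Dnmt3a* probesets disagreed: the 3 brightest gave 0.15, -0.02 and 0.47, while the 2 dimmest gave 0.90, which passed (limma adjusted p = 0.0192), and 0.78, which did not (0.0557).

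**Figure D2:**
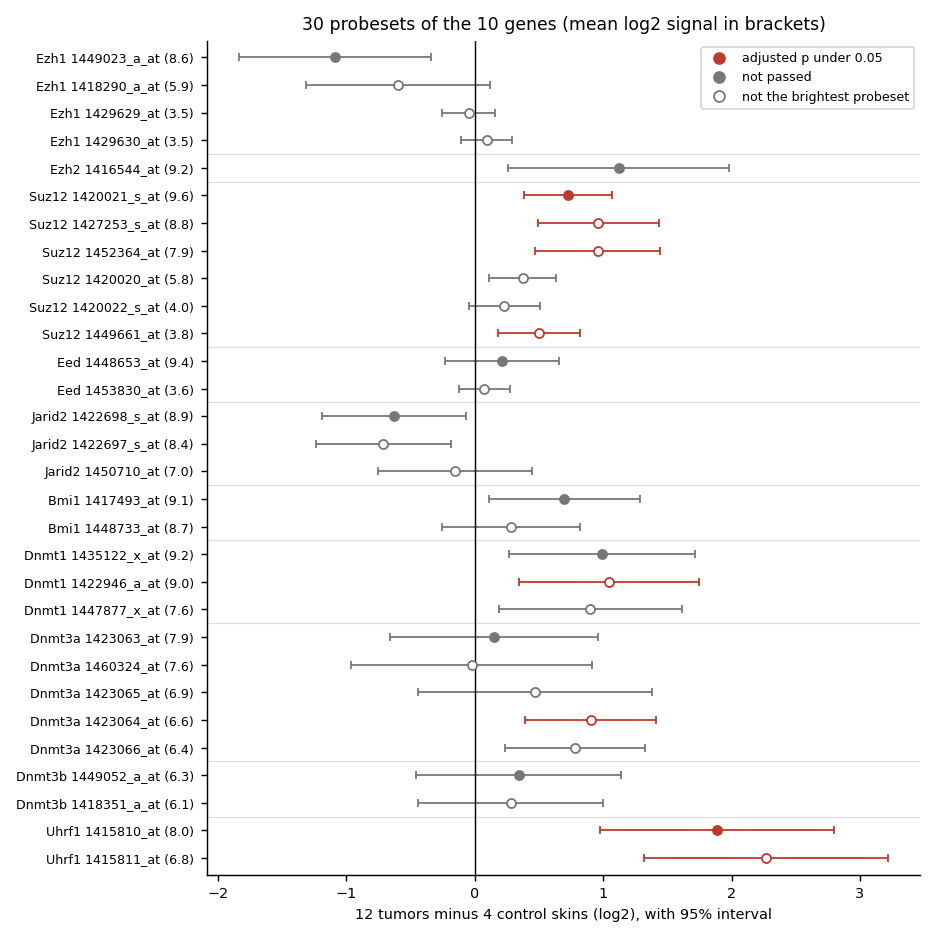
Difference in log2 signal between the 12 tumors and the 4 control skins for all 30 probesets, with 95% intervals, grouped by gene and ordered by mean signal (in brackets). Filled points are the brightest probeset of a gene and red marks a limma adjusted p under 0.05; the 8 called probesets belong to Suz12, Dnmt1, Dnmt3a and Uhrf1 and all lie above 0.

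Counted over probesets, 8 of the 30 members were called higher and none lower, beside the 6.36% and 6.85% of all probesets given above. Leaving out control skin 3 and p53 tumor 7 together gave 3 genes higher (*Suz12*, *Uhrf1* and *Dnmt1*) and none lower, where 4.94% of all probesets were called higher and 6.18% lower.

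The 2 genotypes were next set side by side against the same 4 control skins, which ties the comparisons to each other. In p53 tumors *Suz12* (0.75 ± 0.18 SE, limma adjusted p = 0.0125) and *Uhrf1* (1.91 ± 0.48 SE, adjusted p = 0.0176) rose, which is 2 of 10 genes where 5.57% of all probesets were called higher. In pRbp53 tumors *Suz12* (0.69 ± 0.19 SE, limma adjusted p = 0.0286), *Uhrf1* (1.86 ± 0.52 SE, adjusted p = 0.0277) and *Dnmt1* (1.30 ± 0.38 SE, adjusted p = 0.0347) rose, where 5.54% of all probesets were called higher. No member fell in either, beside 6.38% of all probesets called lower in p53 and 6.86% in pRbp53 tumors, and 1 member (*Ezh1*) was lower in each by limma at an unadjusted p under 0.05, where 10.8% and 11.7% of all probesets were. These calls rested on few arrays: without control skin 1 none of the 5 passed, with limma adjusted p-values from 0.0555 to 0.118. In pRbp53 tumors *Suz12* also missed the threshold without control skin 2 or 4 or pRbp53 tumor 2 or 4, *Dnmt1* without control skin 2 or 4 or pRbp53 tumor 1, 2 or 5, and *Uhrf1* without control skin 2 or pRbp53 tumor 1, 2, 4 or 5, at limma adjusted p-values from 0.0519 to 0.0875. Of the 5 calls, the methods' t-test made only that of *Suz12* in p53 tumors, and it called 1 member, *Ezh1*, lower in pRbp53 tumors, where it called 6.46% of all probesets lower. Control skins 2 and 4 were the most alike of the arrays, and with these 2 averaged into 1 sample *Suz12* (limma adjusted p = 0.0607) and *Dnmt1* (0.0847) no longer passed in pRbp53 tumors, while *Uhrf1* did.

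*Dnmt1* passed in pRbp53 and not in p53 tumors, and its difference between the genotypes, tested below, did not pass. Its lowest, median and highest signals were 8.20, 9.45 and 10.05 in p53 tumors, and its 5 signals in pRbp53 tumors were 9.73, 10.46, 9.06, 9.65 and 9.97. The 2 ranges overlapped. Its difference from control skin in p53 tumors was 0.77 ± 0.35 (SE, limma adjusted p = 0.187).

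Compared directly, pRbp53 and p53 tumors (n = 5 and 7) did not differ in any of the 10 genes at the adjusted p of 0.1 used for this comparison, where 0.198% of all probesets were called. By limma none of the 10 had an unadjusted p under 0.05 either, the lowest being 0.0687 for *Dnmt3a*. The intervals leave room for sizeable differences. *Dnmt3a* was lower in pRbp53 tumors by -0.78 ± 0.39 (SE, 95% interval -1.62 to 0.07), with 7.27, 7.06, 8.09, 7.52 and 7.58 beside a lowest, median and highest of 7.34, 8.16 and 9.82. *Dnmt1* differed by 0.53 (95% interval -0.19 to 1.25). *Ezh2* differed by -0.02 (-1.06 to 1.01), *Uhrf1* by -0.04 (-1.02 to 0.93), *Jarid2* by -0.01 (-0.67 to 0.66) and *Suz12* by -0.06 (-0.46 to 0.33). *Ezh1*, *Eed*, *Bmi1* and *Dnmt3b* differed by -0.21, -0.02, -0.20 and -0.30, and every interval included 0. The spread of *Ezh1* was 0.94 (SD, n = 7) among p53 tumors and 0.23 (SD, n = 5) among pRbp53 tumors, and this difference in spread was not tested.

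**Figure D3:**
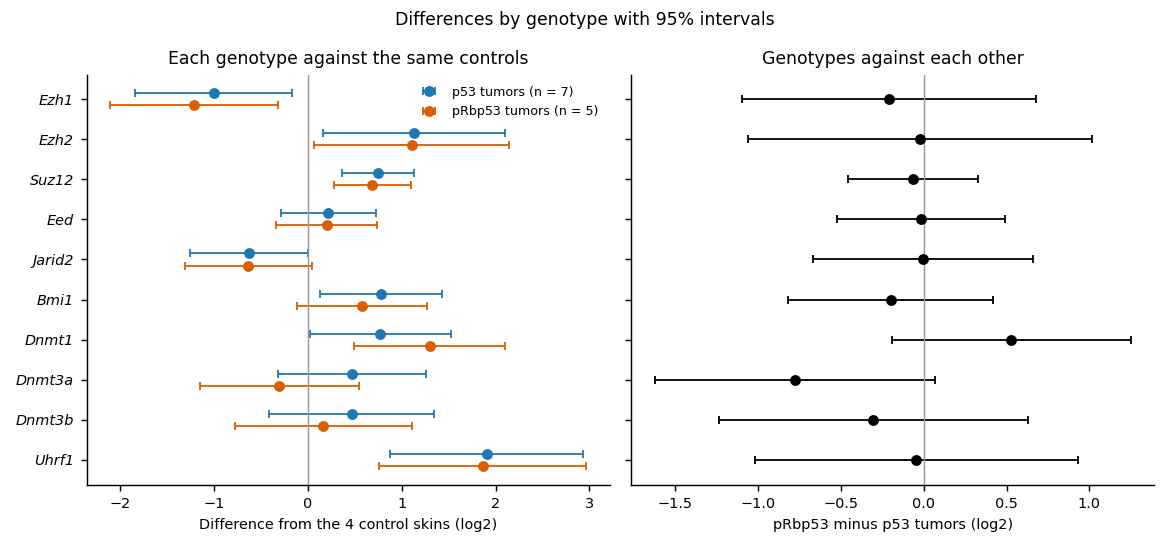
Left, difference in log2 signal of each genotype from the same 4 control skins; right, pRbp53 minus p53 tumors, both with 95% intervals from limma. Left, the points of the 2 genotypes lie close to each other for all genes but Dnmt1, Dnmt3a and Dnmt3b; right, every interval includes 0.

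By histology, 6 undifferentiated or spindle tumors were compared with the 3 poorly differentiated ones. The de novo methyltransferases *Dnmt3a* and *Dnmt3b* fell in the undifferentiated or spindle tumors, and no member rose by limma, at an unadjusted p under 0.05 either. That is 2 of 10 genes and 3 of 30 probesets, beside 3.99% of all probesets called lower and 3.4% called higher. *Dnmt3b* had 7.36, 8.04 and 6.81 in the poorly differentiated p53 tumors 2, 4 and 5, while in the undifferentiated or spindle tumors its lowest, median and highest signals were 5.47, 5.95 and 6.48. *Dnmt3a* had 8.94, 9.82 and 8.16 in the same 3 tumors and 7.06, 7.61 and 8.09 in the others. The 2 classes did not overlap for either gene, as was the case for 13.8% of all probesets. *Dnmt3b* was lower by -1.43 ± 0.28 (SE, limma adjusted p = 0.0184) and *Dnmt3a* by -1.40 ± 0.35 (SE, adjusted p = 0.0454).

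The poorly differentiated tumors lay above control skin in both genes, whose 4 control values stand above. For *Dnmt3b* the mixed p53 tumors 1 and 7, at 5.92 and 5.91, lay among the undifferentiated or spindle tumors, and the mixed pRbp53 tumor 4, at 7.08, among the poorly differentiated ones. For *Dnmt3a* p53 tumor 7, at 8.29, lay among the poorly differentiated tumors, and p53 tumor 1 and pRbp53 tumor 4, at 7.34 and 7.52, among the undifferentiated or spindle ones. Genotype and grade are bound together, since all 3 poorly differentiated tumors were p53 tumors and 4 of the 6 others were pRbp53. With genotype as a covariate the differences were -1.53 (*Dnmt3b*, limma adjusted p = 0.0691) and -1.27 (*Dnmt3a*, adjusted p = 0.195). Within the 5 p53 tumors of these classes the limma adjusted p-values were 0.149 and 0.305. The differences there are the same by construction, since no pRbp53 tumor was poorly differentiated. With sex, read from *Xist*, as a covariate the limma adjusted p-values were 0.0869 and 0.149, and by the methods' t-test they were 0.286 and 0.384. Sex was tied to grade too: all 3 poorly differentiated tumors were read as female and 3 of the 6 others as male. pRbp53 tumor 3, read as female, had an intermediate *Xist* signal of 9.26. The *Dnmt3b* call also ended without p53 tumor 2 (adjusted p = 0.0581) or 4 (0.0577), and that of *Dnmt3a* without any of 7 tumors, with the difference at -0.98 (0.132) without p53 tumor 4.

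The probesets of each gene did not all give the same result. The second *Dnmt3b* probeset gave -1.22 (limma adjusted p = 0.0562). Of the other *Dnmt3a* probesets, 1 gave -1.56 and passed (limma adjusted p = 0.0304) and another gave -1.25, while the 2 dimmest gave 0.02 and -0.46. The keratinocyte mean lay between 5.47 and 11.11 in the poorly differentiated tumors and between 4.52 and 5.85 in the others. Markers of other cells moved with the classes, since 4 of 7 leukocyte and 4 of 5 mesenchymal genes rose in the undifferentiated or spindle tumors. Of all probesets, 3.4% were called higher there. The leukocyte mean lay between 6.99 and 7.55 in the poorly differentiated tumors and between 8.24 and 8.93 in the others, and the mesenchymal mean between 9.58 and 11.46 and between 12.09 and 13.42. Their part in the result was not tested. p53 tumor 5 had the lowest *Dnmt3a* and *Dnmt3b* of its class. Its keratinocyte mean of 5.47 lay above those of the spindle tumors and below that of the undifferentiated p53 tumor 3, at 5.85.

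The other 8 members did not pass between these classes. *Suz12* came closest at -0.39 ± 0.18 (SE, 95% interval -0.79 to 0.02). *Ezh2* differed by -0.60 (95% interval -1.72 to 0.51), *Dnmt1* by 0.45 (-0.18 to 1.08), *Ezh1* by -0.48 (-1.37 to 0.41) and *Uhrf1* by -0.13 (-1.23 to 0.98). Of the 73 measured genes of the related lists described below, *Epop*, *Lcor*, *Ring1* and *Tet1* fell and none rose, named here after their values were seen. That is 4 of 73, close to the 3.99% of all probesets called lower, while 3.4% were called higher. *Tet1*, which oxidises methylated cytosine and so opposes the methyltransferases, fell, with a difference of -2.00 ± 0.44 (SE, limma adjusted p = 0.0271). Its signals ran from 4.09 to 5.74, low on the scale, in the undifferentiated or spindle tumors and were 6.68, 7.84 and 6.17 in p53 tumors 2, 4 and 5. *Epop*, an accessory protein of Polycomb repressive complex 2, fell as well (limma adjusted p = 0.0134), with 6.11, 7.62 and 5.31 in the same 3 tumors. Its 6 signals in the undifferentiated or spindle tumors, from 3.56 to 4.41, lay near the bottom of the scale, as did those of control skin (3.50 to 4.22), so the size of its difference is not given. *Lcor* and *Ring1*, of the same complex and of complex 1, differed by -0.80 and -0.75, with limma adjusted p-values of 0.0309 and 0.0482. None of these 4 calls held with genotype as a covariate, at limma adjusted p-values from 0.0834 to 0.249.

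**Figure D4:**
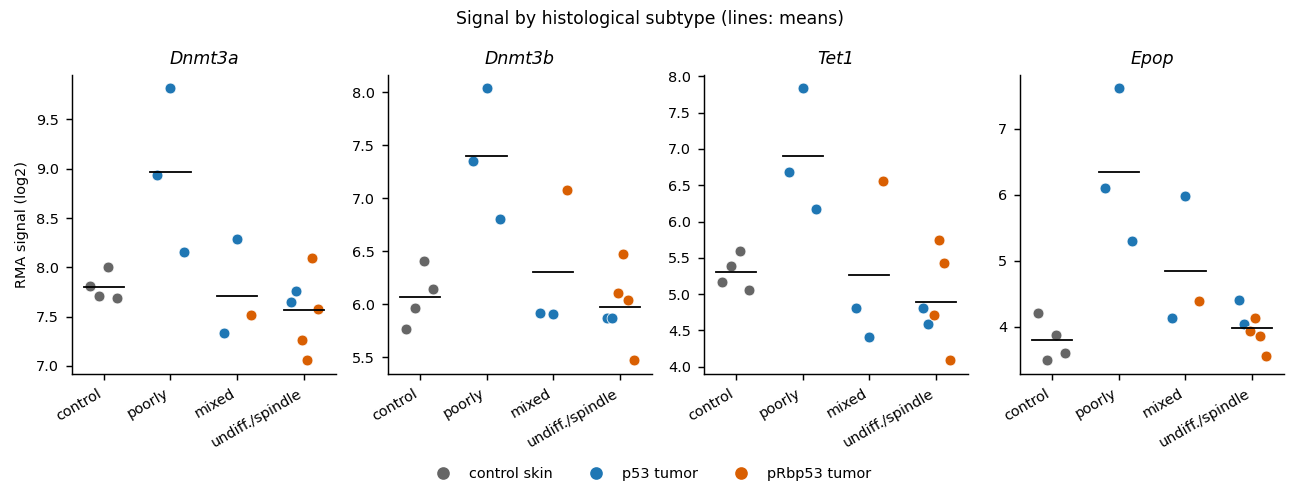
RMA log2 signal of Dnmt3a, Dnmt3b, Tet1 and Epop by histological subtype, with control skin at the left and lines at the class means; colors give the group. The 3 poorly differentiated tumors, all p53 tumors, lie above all 6 undifferentiated or spindle tumors in the 4 panels.

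Since several of the genes serve DNA replication, each was set against the mean log2 signal of 14 cell cycle genes, such as *Top2a* and *Cdk1*, within the 12 tumors. That mean was 7.45 ± 0.52 (SD, n = 4) in control skin and 9.40 ± 0.78 (SD, n = 12) in the tumors. Of the 14 genes 10 rose, where 6.36% of all probesets were called higher. In all, 10 relations were computed, with permutation tests of 100000 resamples. *Uhrf1* followed the mean most closely, with Pearson's r of 0.94 (permutation p = 1e-05, the smallest these resamples can give, adjusted p = 0.0001) and Spearman's rho of 0.90 (permutation p = 0.00022). *Dnmt1* had r = 0.85 (permutation p = 0.00053, adjusted p = 0.00265) and rho = 0.80 (permutation p = 0.00308). *Ezh2* had r = 0.80 (permutation p = 0.00194, adjusted p = 0.00647) and rho = 0.76 (permutation p = 0.00634). *Ezh1* ran against the mean with r = -0.68 (permutation p = 0.0148, adjusted p = 0.0370) and rho = -0.82 (permutation p = 0.00178).

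Of the other 6 genes none passed by r, and *Eed* passed by rho alone. For *Suz12* r was 0.57 (permutation p = 0.0477, adjusted p = 0.0795) with rho = 0.63 (permutation p = 0.0310, adjusted p = 0.0516), and for *Eed* r was 0.62 (permutation p = 0.0397, adjusted p = 0.0794) with rho = 0.69 (permutation p = 0.0152, adjusted p = 0.0304). *Bmi1*, *Dnmt3b*, *Dnmt3a* and *Jarid2* had r of 0.47, 0.26, -0.18 and -0.29 and rho of 0.31, 0.15, -0.29 and -0.01, with permutation p-values for r of 0.125, 0.407, 0.566 and 0.380 and for rho of 0.333, 0.651, 0.355 and 0.992.

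The 2 tumors farthest from the median of the cell cycle mean were p53 tumor 7 at 7.61 and pRbp53 tumor 3 at 8.36. Without them the relation held by both measures for *Uhrf1* (r = 0.87, permutation adjusted p = 0.00345) and *Ezh1* (r = -0.76, adjusted p = 0.0344), and for *Dnmt1* by r (0.74, permutation adjusted p = 0.0344) but not by rho (0.68, adjusted p = 0.0878). That of *Ezh2* rested on these tumors, with r = 0.43 without them (permutation adjusted p = 0.264), and *Eed* then passed with r = 0.88 (adjusted p = 0.00345). Within the 7 p53 tumors alone, by exact permutation, r was 0.95 for *Uhrf1* (adjusted p = 0.0278), 0.92 for *Dnmt1* (0.00595), -0.75 for *Ezh1* (0.0278) and 0.72 for *Ezh2* (0.202). By rho only *Dnmt1* passed there (0.96, exact permutation adjusted p = 0.0278), while *Uhrf1* (0.82) and *Ezh1* (-0.86) both had an adjusted p of 0.114. Without p53 tumor 7 alone, r for *Ezh1* was -0.57 (permutation adjusted p = 0.101) with rho at -0.81 (permutation adjusted p = 0.0140), and r for *Suz12* was 0.67 (adjusted p = 0.0443). *Eed* then passed by both measures, with r = 0.94 (permutation adjusted p = 0.00025) and rho = 0.93 (permutation adjusted p = 0.002). With the mean of a gene's probesets, r for *Ezh1* no longer passed (-0.58, permutation adjusted p = 0.0886) and r for *Suz12* did (0.72, adjusted p = 0.0189). The 5 pRbp53 tumors are too few for such a test.

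**Figure D5:**
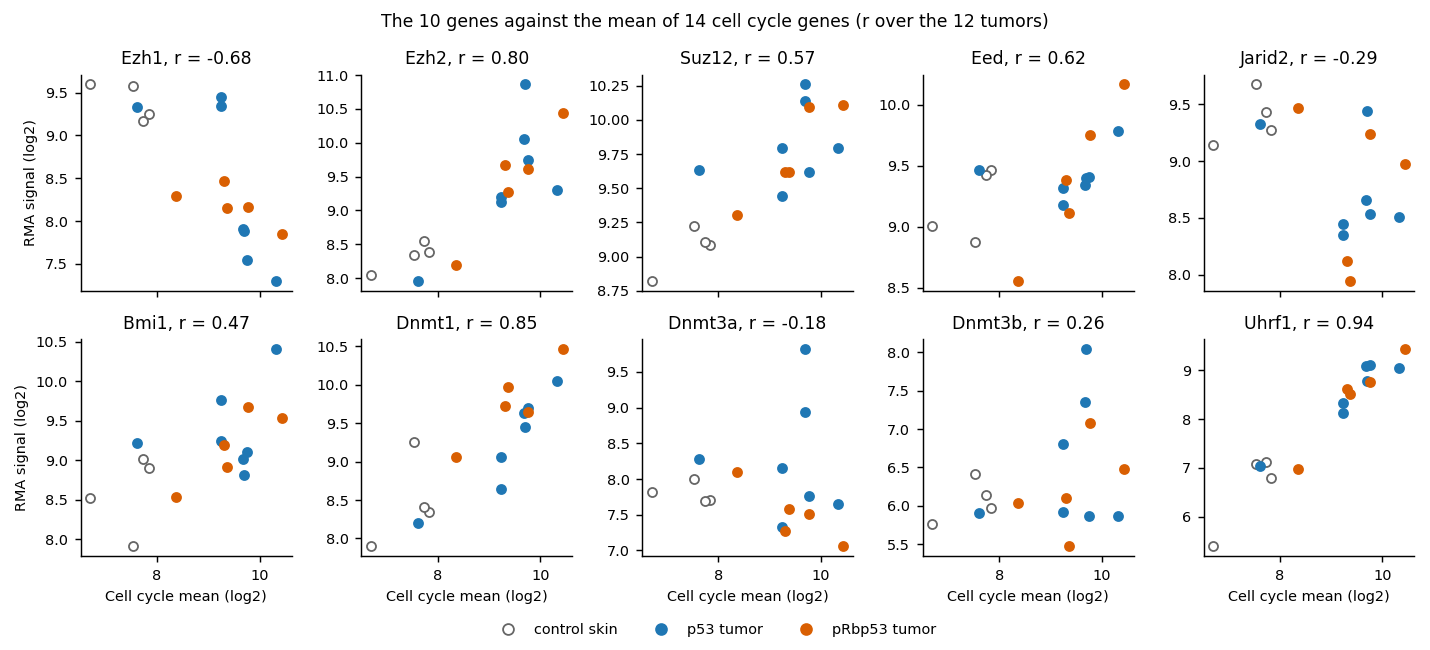
RMA log2 signal of each of the 10 genes against the mean log2 signal of 14 cell cycle genes, for 12 tumors (filled) and 4 control skins (open); r is Pearson's over the tumors only. Uhrf1, Dnmt1 and Ezh2 climb with the cell cycle mean, and Ezh1 declines.

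The genes whose signals followed each member most closely over the 12 tumors were listed as a description, out of 11414 genes above the median signal. For *Ezh2* they were *Cdc6*, *Top2a* and *Hnrnpa2b1* (r of 0.92, 0.92 and 0.91), for *Uhrf1* they were *Exo1*, *Aspm* and *Fbxo5* (0.95, 0.95 and 0.94) and for *Dnmt1* they were *Ncapg2*, *Ndc80* and *Pno1* (0.93, 0.92 and 0.92). For *Suz12* they were *Snrpe*, *Naalad2* and *Srsf1* (0.96, 0.92 and 0.91), and for *Eed* they were *Mphosph10*, *Rttn* and *Sf1* (0.92, 0.89 and 0.88). For *Ezh1* they were *Adcy9*, *Tef* and *Scarb2* (0.94, 0.90 and 0.90). For *Dnmt3a* they were *Krt23*, *Galnt18* and *Ube2z* (0.94, 0.94 and 0.93) and for *Dnmt3b* they were *Atad2b*, *Kdm5a* and *Nup210* (0.91, 0.91 and 0.91). *Jarid2* (*Ndufa4l2*, *Eva1a* and *Heph*, 0.83, 0.82 and 0.81) and *Bmi1* (*Dagla*, *Cldn12* and *Opn3*, 0.85, 0.82 and 0.81) had the least close neighbors. Among the members themselves the closest pairs were *Ezh2* with *Uhrf1* (r = 0.86), *Dnmt1* with *Uhrf1* (0.81) and *Suz12* with *Dnmt3b* (0.81), and the most opposed was *Ezh1* with *Dnmt1* (-0.80). These values come from the same 12 arrays and carry no test.

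Related genes of the 2 pathways were then counted between tumors and control skin by the same test, which called 6.36% of all probesets higher and 6.85% lower. These shares stand beside every list below, and in lists this small a single call says little about the list. Of 9 further subunits and partners of Polycomb repressive complex 2, 3 rose and none fell: *Rbbp7*, a histone chaperone of the complex, by 0.61 ± 0.14 (SE, limma adjusted p = 0.00656), *Mtf2* by 0.74 ± 0.23 (adjusted p = 0.0393) and *Aebp2* by 0.50 ± 0.14 (adjusted p = 0.0235). *Rbbp7* passed under every alternative run. *Mtf2* did not pass when any 1 of the 4 control skins, p53 tumor 1 or 2, or pRbp53 tumor 2 or 5 was left out, nor *Aebp2* without control skin 1 or 3, and without control skin 3 and p53 tumor 7 only *Rbbp7* of the list passed. Their median difference was 0.50.

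Of 18 measured subunits of Polycomb repressive complex 1, 3 rose and 1 fell, and all 4 calls held under every alternative run. The 1 of 18 called lower is near the 6.85% of all probesets. *Phc1*, a Polyhomeotic subunit, rose by 1.45 ± 0.26 (SE, limma adjusted p = 0.00121), *Cbx6* by 1.18 ± 0.22 (adjusted p = 0.00211) and *Yaf2* by 1.17 ± 0.22 (adjusted p = 0.00198). *Cbx7*, a chromodomain subunit that reads the histone mark, fell, with a difference of -1.49 ± 0.27 (SE, limma adjusted p = 0.00151) and with 7.61, 7.16, 7.63 and 7.12 in control skin and a highest tumor value of 7.02. The list's median difference was 0.13, near the 0.06 of all genes. None of 9 enzymes that remove or oppose the Polycomb marks, such as *Kdm6a* and *Bap1*, passed between all tumors and control skin by limma, though 2 were higher at an unadjusted p under 0.05 (14.9% of all probesets) and 2 by the methods' t-test after adjustment (11.3%).

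Of 9 partners of the DNA methyltransferases, 2 rose and none fell: *Hells*, a chromatin remodeler needed for methylation, by 2.36 ± 0.50 (SE, limma adjusted p = 0.00494) and *Uhrf2*, the paralog of *Uhrf1*, by 1.01 ± 0.20 (adjusted p = 0.00251). Of 5 measured genes listed under the removal of DNA methylation, *Mbd4*, a DNA glycosylase, rose by 1.02 ± 0.25 (SE, limma adjusted p = 0.0121), and without control skin 1 the adjusted p was 0.0697. Of 6 measured readers of methylated DNA, *Zbtb4* fell, with a difference of -0.93 ± 0.27 (SE, limma adjusted p = 0.0321), which did not hold without any 1 of the control skins.

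Of the genes that these systems are known to silence, *Cdkn2a*, the locus of p16 and p19ARF and a classic Polycomb target, rose by 3.03 ± 0.81 (SE, limma adjusted p = 0.0205). Its signals were 4.66, 3.90, 4.89 and 3.57 in control skin and ran from 4.10 to 9.09 in the tumors. Those of control skin lay low on the scale, so the size of the difference is only a rough guide. p53 tumors 1 and 5 lay in the control range at 4.38 and 4.10, p53 tumor 2 was at 5.81 and the other 9 tumors were at 7.52 or above. Without control skin 1, 2 or 4 in turn the limma adjusted p was 0.0510, 0.0677 and 0.0766. The adjacent *Cdkn2b* did not pass, with a difference of 0.75 (limma adjusted p = 0.591), and it too was low in those 2 tumors, at 4.42 and 6.14 beside 7.15 to 7.96 in control skin. Of 15 measured germline genes known to be held silent by promoter methylation, none rose and *Sycp3*, with means near the bottom of the scale at 3.18 in the tumors and 3.73 in control skin, was lower by -0.55 ± 0.15 (SE, limma adjusted p = 0.0266). That call did not hold without control skin 2, 3 or 4. Their mean signal lay between 3.58 and 3.72 in control skin and between 3.59 and 4.42 in the tumors. No gene of these lists passed between the genotypes at the adjusted p of 0.1 by limma, nor by the methods' t-test, while at an unadjusted p under 0.05 limma had 1 of their 73 genes higher and 5 lower in pRbp53 tumors, where 4.58% and 4.71% of all probesets were.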

How the data were processed

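RNA of 4 control skins, 7 p53 tumors and 5 pRbp53 tumors of mice had been hybridised to 1 Affymetrix array per sample. The authors made the deposited log2 values with RMA, which corrects background, normalizes arrays to a shared distribution and summarises each probeset, so differences in total RNA are removed. No version of RMA is given in the sources used here. Groups come from the sample titles and histology from the labels. Of 45101 probesets, 64 array controls were left out. An annotation of 2016 gave 1 symbol for 34945 probesets, several for 932 and none for 9160.

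Differences were fitted with limma 3.58.1 in R 4.3.3 (empirical Bayes, Benjamini-Hochberg over 45037 probesets, two-sided), which was tested on simulated data. Group means carry their SD and differences their standard error (SE). Correlations and paralog differences used permutation tests in Python 3.11.15 with numpy 2.4.6, and figures were drawn with matplotlib 3.10.9. Precision is limited by how few arrays there are.

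The 10 genes, the gene lists and the tests were chosen with earlier results of these data known. All 10 genes are named, with up to 4 genes of each list that passed between tumors and control skin, ranked by size of the difference, and the 3 closest neighbors of each member. *Epop*, *Lcor*, *Ring1*, *Tet1*, *Cdkn2b* and single germline genes were named after their values were seen. Listed genes that no probeset names alone were left out. The deviations of samples with the same replicate number correlated at -0.23 to 0.25, with 3 of 13 pairs over 0.1. Pairs of different numbers were not computed, so this cannot show whether the numbers pair the samples. The samples were treated as unpaired.

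Alternatives were the mean of a gene's probesets, quantile normalization, median centring, a replicate block, another prior, array weights, the methods' t-test, brighter probesets only, covariates, subsets of tumors and leaving out each array. Leaving out control skin 3 with p53 tumor 7, averaging the alike control skins 2 and 4, and sex (read from *Xist*) as a covariate were tried as well.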

Additional observations from a re-analysis of the deposited data

Results flagged for a closer look

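Among the 10 genes no array stood apart from the others of its group by Dixon's test at the 95% level. Over 42 genes (the members, the related genes named and the germline list), 126 groups were tested and 7 arrays stood apart, where chance alone marks about 1 in 20 groups. *Cbx7* was highest in pRbp53 tumor 3 at 6.16, with the next pRbp53 tumor at 5.69. The other 6 were germline genes. *Slc25a31*, a transporter of the testis, was at 10.5 in pRbp53 tumor 1 against 3.23 in the next of the 5 pRbp53 tumors, and *Mael*, which guards germ cells against transposons, was at 7.75 in the same tumor against 2.85. *Sycp1*, of the meiotic synaptonemal complex, was at 7.79 in pRbp53 tumor 5 against 3.36. *Tex19.1* was at 6.70 in p53 tumor 4 against 4.81. *Syce1* was at 4.46 in p53 tumor 7 against 3.94, and *Slc25a31* at 3.39 in control skin 3 against 3.09, both near the bottom of the scale. These germline genes were named after their values were seen.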

How the results depend on the processing

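The alternatives left the 2 members called between tumors and control skin in place except where named here; the cause of each change was not tested. Of 1739 alternative limma differences of single members and named related genes, 1532 kept their direction and side of the threshold, 124 no longer passed, 33 passed only then and 50 changed sign. Differences that passed neither in the main fit nor in the alternative count as kept. The paralog and cell cycle tests are not in this count. The number of arrays, 4 control skins and 3 poorly differentiated tumors at the fewest, limits the depth of every comparison.

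Between tumors and control skin, array weights called 14405 probesets and the methods' t-test 8987. Members called higher were 4 with array weights, and members called lower were 1 with quantile normalization, the replicate block or brighter probesets only (*Ezh1*) and 2 with array weights or the methods' t-test. In p53 tumors array weights called 10027 probesets, with 4 members higher and 1 lower, and the methods' t-test called 1 member higher. In pRbp53 tumors array weights called 12394 probesets and 2 members lower, the methods' t-test 0 higher and 1 lower, the replicate block 1 lower, and averaging control skins 2 and 4 left 1 higher (*Uhrf1*). The mean of its probesets turned *Dnmt3a* to 0.26 there.

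Between the genotypes, the probesets called numbered 35 with the replicate block, 288 with array weights, 25 with the methods' t-test, 468 in a fit of all 16 arrays, 54 with histology as a covariate and 20 in spindle tumors only. Differences near 0 changed sign. With quantile normalization *Ezh2* was 0.0156, *Eed* 0.0335 and *Jarid2* 0.0409. With sex as a covariate *Ezh2* was 0.0254 and *Jarid2* 0.0416. With histology as a covariate *Ezh1* was 0.12, *Ezh2* 0.27, *Suz12* 0.15, *Jarid2* 0.18 and *Dnmt3b* 0.49. In spindle tumors only, *Ezh1* was 0.64, *Suz12* 0.0401, *Jarid2* 0.0902 and *Dnmt3b* 0.15. *Ezh1* was 0.0035 with the mean of its probesets, and *Jarid2* 0.0654 with the replicate block and 0.0899 without control skin 3 and p53 tumor 7.

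Between undifferentiated or spindle and poorly differentiated tumors, the probesets called numbered 0 with the replicate block, 825 with the methods' t-test, 1614 with sex as a covariate, 2024 with genotype as a covariate and 827 in p53 tumors only. Members called lower were 1 with the mean of a gene's probesets and 0 with each of those 5 settings. *Ezh2* turned to 0.23 and *Uhrf1* to 0.26 with the replicate block, and *Jarid2* to 0.17 with sex as a covariate. *Uhrf1* turned to 0.33 with genotype as a covariate or in p53 tumors only, settings that give the same difference by construction.

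For *Ezh2* minus *Ezh1* the shift was 1.53 with the mean of a gene's probesets between tumors and control skin, and between the genotypes it was -0.0283 with that mean and -0.22 without control skin 3 and p53 tumor 7. *Dnmt3b* minus *Dnmt3a* turned to -0.14 with that mean between tumors and control skin. Against the cell cycle mean, r was -0.58 (*Ezh1*, no longer passing) and 0.72 (*Suz12*, now passing) with the mean of a gene's probesets. Without p53 tumor 7 it was -0.57 (*Ezh1*), 0.67 (*Suz12*) and 0.94 (*Eed*). Without the 2 farthest tumors it was 0.43 (*Ezh2*), 0.88 (*Eed*) and 0.47 (*Jarid2*), and in p53 tumors only 0.72 (*Ezh2*) and 0.0068 (*Dnmt3a*).

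Leaving out each array in turn gave 3744 to 6908 called probesets between tumors and control skin, 3362 to 6339 for p53 tumors, 3712 to 6274 for pRbp53 tumors, 47 to 216 between the genotypes and 2039 to 3473 by grade. The lowest counts against control skin came without control skin 1 and the highest without p53 tumor 7, and the lowest by grade without p53 tumor 4. Members called higher ranged from 1 to 4 between tumors and control skin and from 0 to 3 for each genotype, members called lower from 0 to 1 between tumors and control skin and from 0 to 2 by grade. *Dnmt3a* ranged from -0.0193 to 0.23 between tumors and control skin, and *Dnmt3b* from -0.0475 to 0.35 in pRbp53 tumors. Between the genotypes *Ezh2* ranged from -0.28 to 0.29, *Suz12* from -0.15 to 0.0466, *Eed* from -0.21 to 0.19, *Jarid2* from -0.19 to 0.20 and *Uhrf1* from -0.29 to 0.33. By grade *Ezh1* ranged from -0.75 to 0.0403, *Eed* from -0.10 to 0.22, *Jarid2* from -0.46 to 0.0882 and *Uhrf1* from -0.33 to 0.20. *Ezh2* minus *Ezh1* ranged from 2.04 to 2.44 between tumors and control skin, from -0.22 to 0.52 between the genotypes and from -1.06 to 0.55 by grade, and *Dnmt3b* minus *Dnmt3a* by grade from -0.23 to 0.0828.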
